A study of Homo sapiens with 2 samples.

Results

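The MYC and MAX network is a set of transcription factor genes whose proteins pair with MAX, or with its relative MLX, before they bind DNA. Members were taken by gene symbol as MYC, MYCN, MYCL, MAX, MXD1, MXD3, MXD4, MXI1, MNT and MLX, and each of the 10 matched 1 of the 50868 deposited genes. They were measured by RNA sequencing of cells labelled HepG2, the name of a human liver cancer line, in an untreated parental culture (genotype labelled WT) and in a culture grown out under sorafenib (genotype labelled sorafenib resistance). Sorafenib is a drug against liver cancer that blocks several kinases. Its dose started at 2.5 µM and was raised by 0.5 µM at a time to 7 µM. Each group had 1 library, and the labels do not say whether the resistant cells are 1 clone.

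MYC proteins carry a basic helix-loop-helix leucine zipper and activate genes of growth as dimers with MAX, mainly at the DNA word CACGTG, the E-box. MXD1, MXD3, MXD4, MXI1 and MNT compete for the same partner and the same sites, and they bring SIN3 and histone deacetylases that repress transcription. MLX is a parallel hub that binds some MXD proteins and the glucose-sensing factors MLXIP (MondoA) and MLXIPL (ChREBP). In liver cancer MYC is a frequent oncogene, and MAX is known as the stably and broadly expressed hub.

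The parental library held 18067146 counts and the resistant library 16811907. A count of 1 was worth 0.0552 and 0.0597 CPM, counts relative to depth scaled with the trimmed mean of M values. Because neither group was replicated, the conditions could not be tested against each other, and every interval below is a 95% interval that covers counting error only. Fewer cells of a type and less RNA per cell cannot be told apart in such bulk libraries. Of 12 hepatocyte markers, 10 had 0 counts in both libraries, among them ALB, AFP and APOB, and all 12 had at most 3 counts in each. HepG2 is known to express such genes, so the labelled identity of the line is in doubt, and the names HepG2, parental and resistant stand for the labels only. The part of that mismatch in the values below was not tested. Markers of leukocytes and endothelium summed to at most 4.71 CPM. Bile duct markers summed to 1898 CPM (parental) and 2520 CPM (resistant), and fibroblast markers to 397 and 403 CPM. Of these, 1 of 5 bile duct markers (EPCAM) and 2 of 7 fibroblast markers (COL1A2 and PDGFRA) had 0 counts in both libraries.

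MAX, the shared partner, had the largest log2 ratio in size of the 9 members measured at 1 CPM or more, by CPM under each choice of scaling and pseudocount tried and by FPKM. It had 412 counts in the parental library, a level of 22.7 CPM (20.6 to 25.04). In the resistant library it had 848 counts, or 50.6 CPM (47.2 to 54.1). The resistant level was 2.22-fold the parental level (1.98 to 2.51), a log2 ratio of 1.12 on the scale of CPM plus 1. MAX was the 1 member of 9 past the size rule used here, a log2 ratio that reaches 1 in size, as 1 or more or as -1 or less. Among 14686 measured genes, those with at least 1 CPM in either library, 1.31% were past that size on the higher side and 0.994% on the lower side. Of the measured genes, 139 (0.946%) had a ratio as high as that of MAX. From the deposited FPKM with a pseudocount of 1 the log2 ratio of MAX was 0.79, inside the size rule, since that pseudocount weighs more on FPKM of 1.53 and 3.38. The authors' deposited table also called MAX higher, with a log2 fold change of 1.15, and called no other member; it rests on the same 2 libraries. MAX lies on chromosome 14 (65006174 to 65102695, minus strand, GRCh38) and overlaps FNTB, a farnesyltransferase subunit gene on the other strand, without sharing exons. FNTB went the other way, with 322 and 227 counts. The antisense gene AL139022.1, which overlaps MAX exons, had 0 counts in both libraries.

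Within the MYC family the main gene was lower and MYCL higher in the resistant library. MYC (ENSG00000136997; chromosome 8, 127735434 to 127741434, plus strand) had 189 counts and 10.4 CPM (8.996 to 12.03) in the parental library. Its resistant count was 113, at 6.74 CPM (5.56 to 8.10). This was 1.55-fold lower (1.22 to 1.97), at a log2 ratio of -0.56, and 4.18% of measured genes had a ratio as low. MYCL, the family member first found in lung cancer, had 51 and 78 counts, that is 2.81 CPM (2.10 to 3.70) and 4.65 CPM (3.68 to 5.81). Its fold was 1.65 (1.15 to 2.40) and its log2 ratio 0.57. MYCN, the family member of neuroblastoma, had 8 parental counts and 0 resistant ones. For a resistant count of 0, the worth of 3 counts was 0.179 CPM. By the same kind of interval as for the other levels, the resistant level of MYCN could reach 0.220 CPM. The parental interval of MYCN starts at 0.191 CPM. An overlap of 2 separate intervals is not the interval of a fold, so it does not decide whether the levels of MYCN differ. At 0.441 CPM (0.191 to 0.870) in the parental library MYCN was under the level at which a gene counted as measured, and no fold is given for it. MYC and MYCL were close to but inside a smaller size, a fold of 1.5 on the same log2 scale, and with a pseudocount of 0.25 CPM in place of 1 both passed it, at -0.61 and 0.68. From the deposited FPKM with a pseudocount of 1 they were at -0.31 and 0.24. That size was passed on the higher side by 2 of 9 members, MAX and MXI1, against 4.84% of measured genes, and on the lower side by 0 of 9, against 3.81%.

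The 5 repressor genes did not move together. MXI1, a repressor of the MXD group that is also called MXD2, had 510 counts and 28.1 CPM (25.8 to 30.7) in the parental library. Its resistant count was 763, at 45.5 CPM (42.3 to 48.9), with a fold of 1.62 (1.44 to 1.81) and a log2 ratio of 0.67. MXD4, known for its expression in differentiating cells, had 1175 and 835 counts. Its level was 64.8 CPM (61.2 to 68.7) and 49.8 CPM (46.5 to 53.3), so it was 1.302-fold lower (1.19 to 1.42) in the resistant library. The 2 most abundant MXD-type repressors thus lay on opposite sides of the parental level, and their intervals did not overlap between the libraries.

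The other 3 repressors had folds under 1 with intervals that include 1, so no direction is drawn for them. MNT, the broadly expressed antagonist of MYC, had 958 and 812 counts, at a fold of 0.916 (0.833 to 1.01). MXD1, the founding member of the MXD group, had 352 and 290 counts, at a fold of 0.891 (0.760 to 1.04). MXD3, the MXD gene linked to proliferating cells in S phase, had 291 and 231 counts, at a fold of 0.858 (0.719 to 1.02). These values do not show that the genes were equal in both cultures, since each interval also holds folds well below 1. MXD1 shares 237 exon bases with SNRNP27, and MXD3 shares 926 with RAB24 and 1158 with PRELID1 on the other strand, so some of their reads may belong to a neighbour. Summed with these neighbours the log2 ratio of MXD1 went from -0.16 to 0.014, and that of MXD3 from -0.21 to -0.052.

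MLX had the highest CPM of the members in the parental library, with an interval that overlaps that of MXD4, and was lower in the resistant library. It had 1203 counts and 66.4 CPM (62.7 to 70.3) in the parental library against 780 counts and 46.5 CPM (43.3 to 49.9) in the resistant library. This was 1.43-fold lower (1.303 to 1.56), at a log2 ratio of -0.50, and 5.31% of measured genes had a ratio as low. MLX shares 770 of its 4259 merged exon bases with PSMC3IP on the other strand, a gene of meiotic recombination with 1035 and 951 counts. Since the use of strand in counting is not given, their reads may not be separable, and the sum of both genes had a log2 ratio of -0.26. Of its partners outside the 10 members, MLXIP had 1758 and 1346 counts, a fold of 0.828 (0.770 to 0.889). MLXIPL, which is prominent in normal liver, was low, with 64 and 72 counts and a fold of 1.22 (0.856 to 1.73). MGA, a very large protein that pairs with MAX, had 2916 and 2648 counts and a fold of 0.982 (0.931 to 1.04).

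**Figure D1:**
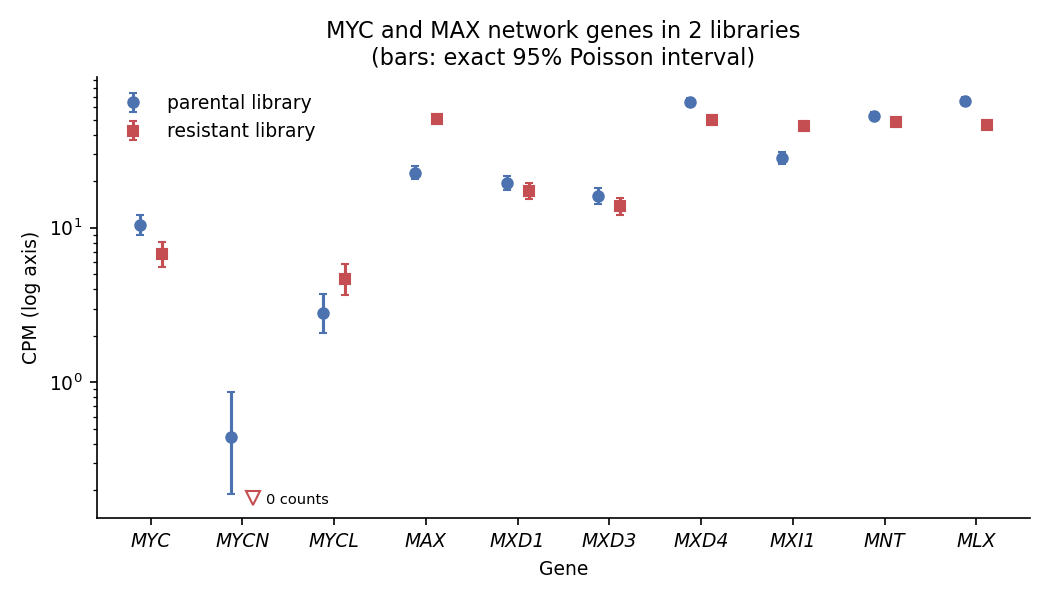
Level of each network gene in CPM (log axis) in the parental library (circles) and the resistant library (squares), 1 library each, with exact 95% Poisson intervals; the open triangle is the 0.179 CPM that 3 counts are worth, drawn for MYCN, which had 0 counts in the resistant library. MAX at 22.7 and 50.6 CPM and MXI1 at 28.1 and 45.5 CPM lie higher in the resistant library, and MYC at 10.4 and 6.74 CPM lies lower.

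**Figure D2:**
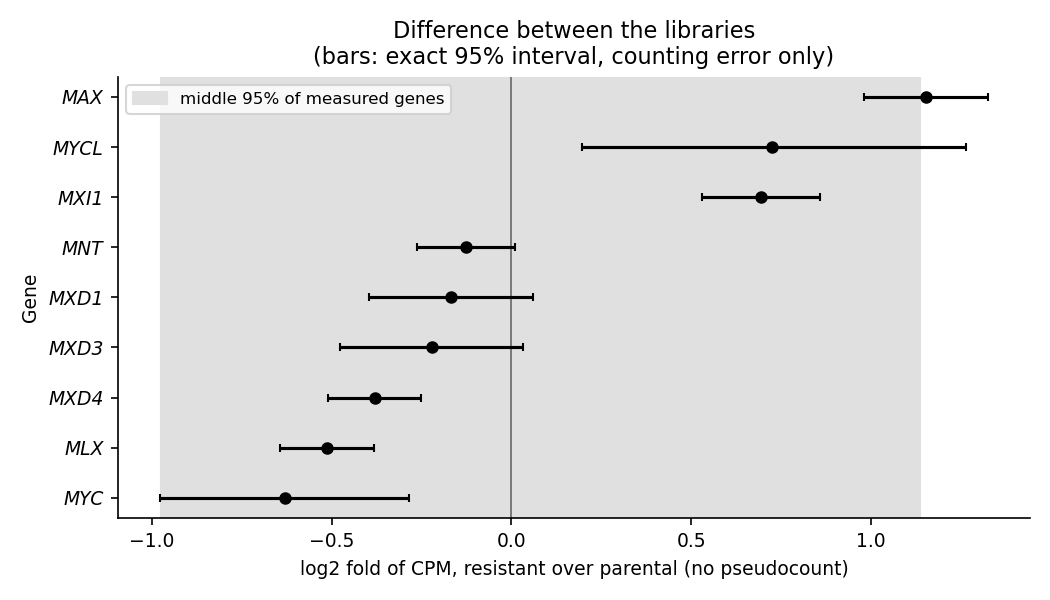
Log2 fold of CPM without a pseudocount, resistant over parental, for the 9 members with counts in both libraries, with exact 95% intervals that cover counting error only; the grey band holds the middle 95% of measured genes. The point of MAX, at a fold of 2.22, lies just past the upper edge of the band and its interval crosses that edge, while the points of the other 8 genes lie within the band.

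The interval of the fold excluded 1 for 6 of 9 measured members, 3 higher (MAX, MXI1, MYCL) and 3 lower (MYC, MXD4, MLX). The same held for 42.2% of all measured genes, 21.1% higher and 21.2% lower, so an interval that excludes 1 is common between these libraries. The median log2 ratio of the 9 measured members was -0.16, beside -0.0018 over all measured genes. The 10 members together summed to 284 CPM (parental) and 283 CPM (resistant), and by deposited FPKM to 29.2 and 27.8. The CPM total of the network was thus nearly the same while its makeup differed.

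Ratios of 2 genes within a library do not depend on how libraries are scaled. The count of MYC was 0.459 of that of MAX in the parental library and 0.133 in the resistant one. This ratio was therefore 3.44-fold lower (2.63 to 4.51) in the resistant library. The same ratio to MAX was 3.17-fold lower for MLX (2.73 to 3.69), 2.90-fold lower for MXD4 (2.49 to 3.37) and 2.43-fold lower for MNT (2.08 to 2.83). It was 2.59-fold lower for MXD3 (2.09 to 3.21) and 2.50-fold lower for MXD1 (2.05 to 3.05). For MXI1 it was 1.38-fold lower (1.17 to 1.62), and for MYCL 1.35-fold lower with an interval that includes no difference (0.908 to 1.98). All these ratios share the counts of MAX, so they are not independent of each other. MAX itself was 2.22-fold higher by CPM, so a gene with equal CPM in both libraries would have a ratio 2.22-fold lower. The ratios of MNT, MXD1 and MXD3 thus give no direction for these genes, whose own fold intervals include 1. Between the repressors, MXI1 had 0.434 of the count of MXD4 in the parental library and 0.914 in the resistant one, a ratio 2.11-fold higher (1.82 to 2.44). MYC had 0.197 of the count of MNT in the parental library and 0.139 in the resistant one, 1.42-fold lower (1.10 to 1.84).

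Levels of different genes can be compared only per length of transcript. By the deposited FPKM the order in the parental library was MLX (7.68), MXD4 (7.10), MNT (4.62), MXI1 (3.22), MXD3 (1.86), MAX (1.53), MXD1 (1.49), MYC (1.17), MYCL (0.386) and MYCN (0.170). In that order the counting intervals of MLX and MXD4 overlapped, as did those of MXD3 with MAX, MAX with MXD1, MXD1 with MYC, and MYCL with MYCN. In the resistant library MXD4 (5.43), MLX (5.35) and MXI1 (5.18) led with overlapping intervals, ahead of MNT (4.21) and MAX (3.38). There MYC stood at 0.750 FPKM and MYCL at 0.634, with overlapping intervals, whereas their intervals in the parental library were apart.

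The length behind the deposited FPKM needs care for these genes. For 8 of the 10 members it equalled, within 0.1%, the summed length of all distinct annotated exons, in which overlapping exons of different transcripts are counted repeatedly. For MAX this length was 14915 bases, against 4430 bases of merged exons, so that a gene with many annotated transcripts gets a low FPKM. Per kilobase of merged exons MAX stood at 5.13 CPM in the parental library, at place 5, and at 11.4 CPM in the resistant library, at place 1 with an interval that overlaps that of MLX at 10.9. MYC stood at 3.48 and 2.25 CPM per kilobase on this scale. MYCL stood at 0.556 and 0.919, with an interval apart from that of MYC in the resistant library too, unlike by FPKM.

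Of the summed FPKM of the 10 members, MAX held 5.23% (parental) and 12.1% (resistant). On the merged-exon scale these shares were 9.79% and 21.4%. The MYC family held 5.90% and 4.97% by FPKM, and 8.01% and 5.93% by merged exons. The 5 repressors held 62.6% and 63.7% by FPKM, with MXI1 going from 11.0% to 18.6% and MXD4 from 24.3% to 19.5%. On both scales the share of MAX was higher and that of the MYC family lower in the resistant library. The repressors as a group kept a similar share of all 10 members on both scales. With MLX left out of the FPKM sum, the 5 repressors held 84.9% (parental) and 78.8% (resistant). FPKM and merged-exon values describe mRNA, not the amounts of protein that pair with each other.

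**Figure D3:**
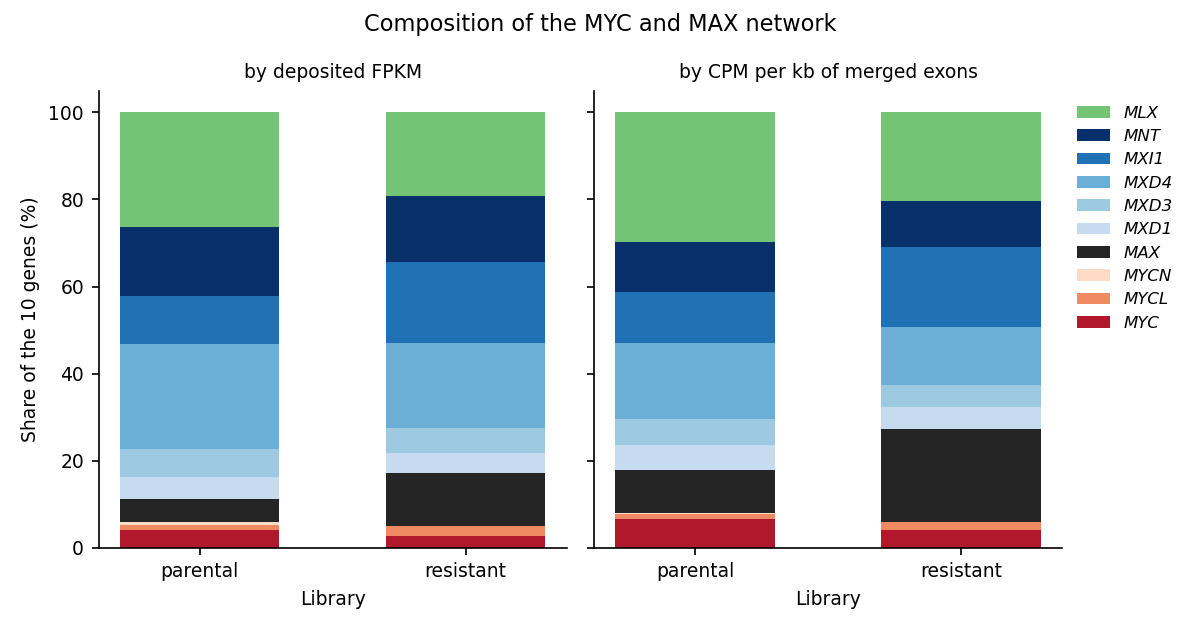
Share of each gene in the summed level of the 10 network genes (%), in the parental and the resistant library, by deposited FPKM (left) and by CPM per kilobase of merged exons (right). The black segment of MAX goes from 5.23% to 12.1% by FPKM and from 9.79% to 21.4% by merged exons.

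Some members carry in their own promoters the E-box that the network binds. RefSeq promoter sequences (GRCh38.p14, 250 bases before to 50 after a start site) were matched for 9 of the 10 members, 12 promoters in all. The word CACGTG, which reads the same on both strands, was found in 3 of them, those of MLX, MNT and MXD4. Each is shown 5′ to 3′ on the strand of its gene, upstream of the start site, with the E-box in capitals, because this is the word that the dimers of the network bind.
MLX: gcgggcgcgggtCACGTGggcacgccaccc
MNT: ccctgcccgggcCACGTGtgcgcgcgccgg
MXD4: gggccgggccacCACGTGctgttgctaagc
The E-box starts 50 bases before the start site in MLX (chr17:42567038-42567067, plus strand), 193 bases before it in MNT (chr17:2401236-2401265, minus strand) and 238 bases before it in MXD4 (chr4:2262330-2262359, minus strand). Of all 35116 promoters of this length 7.26% hold the word. The 3 genes that carry it had log2 ratios of -0.50 (MLX), -0.12 (MNT) and -0.37 (MXD4), and the matched promoters of MAX, MXI1, MXD1, MXD3, MYCL and MYCN do not have these letters. Among measured genes matched by symbol, 1301 with the word had a median log2 ratio of -0.0046 and 8960 without it had one of -0.0048, so the medians of genes with and without an E-box were alike. A match of letters is a description and does not show binding.

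Cofactors of the network were more often higher than lower by small differences, and turnover factors were close to the background. Of 22 cofactor genes, all measured, 15 had a positive and 7 a negative log2 ratio. That is 68.2% positive, beside 49.7% of all measured genes. The median of the cofactors was 0.070, and 0 were past the size rule. MYCBP, which encodes a MYC-binding protein, was highest with 402 and 581 counts, a fold of 1.56 (1.37 to 1.78). KAT2A, a histone acetyltransferase recruited by MYC, was at 1.23-fold (1.14 to 1.33). MYCBP, KAT2A and CDK9 each overlap exons of a same-strand neighbour, so their counts are uncertain. CDK9, the kinase of transcription elongation, was lowest at 0.792-fold (0.718 to 0.873), and SIN3A, the scaffold of MXD repression, was at 0.868-fold (0.820 to 0.919). ZBTB17 (MIZ1), through which MYC represses genes, had 370 and 400 counts and was at 1.17-fold (1.01 to 1.35).

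Of 23 genes that act on the stability or activity of the MYC protein, 12 were positive and 11 negative, with a median of 0.0035 and 0 past the size rule. TRIM32, a ubiquitin ligase gene reported to act on MYC, had 111 and 199 counts and was at 1.94-fold (1.53 to 2.47). STUB1, the chaperone-linked ligase gene CHIP, was at 1.33-fold (1.16 to 1.51). BTRC, a receptor subunit gene of an SCF ligase, was at 0.867-fold (0.779 to 0.965), and AURKA, a mitotic kinase gene whose protein protects MYC proteins from degradation, was at 0.889-fold (0.841 to 0.940). All measured genes had a median of -0.0018, with 49.7% positive.

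Genes that MYC is known to activate are given in 3 lists by function, and differences between the lists were not tested. Of 34 genes of the nucleolus and ribosome assembly, a core output of MYC, 31 were positive and 3 negative, with a median log2 ratio of 0.15. NIP7, a factor of ribosome maturation, was the 1 gene past the size rule, with 418 and 801 counts and a fold of 2.07 (1.84 to 2.34). NOLC1, a nucleolar phosphoprotein gene, was at 1.38-fold (1.32 to 1.44). RCL1, a factor of ribosomal RNA processing, was lowest at 0.8795-fold (0.774 to 0.999), and UBTF, a factor of RNA polymerase I, was at 0.958-fold (0.905 to 1.01). The differences in this list were thus mostly small and mostly higher in the resistant library, where MYC mRNA was lower. A link between these genes and MYC was not tested.

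Of 35 genes of metabolism and growth, 22 were positive and 13 negative, with a median of 0.057 and 0 past the size rule. TERT, the telomerase gene, was highest at a log2 ratio of 0.93, with 1 and 17 counts. Its fold without a pseudocount was 18.4 (2.88 to 768). CTPS1, a nucleotide synthesis gene, was at 1.38-fold (1.32 to 1.43) and PTMA, the prothymosin gene, at 1.28-fold (1.24 to 1.32), though PTMA shares exons with another gene. PKM and LDHA, enzymes of late glycolysis, were the lowest, at 0.576-fold (0.564 to 0.589) and 0.695-fold (0.683 to 0.708). Of 14 cell cycle genes 13 were measured, 5 positive and 8 negative, with a median of -0.11. CDK4 was highest at 1.33-fold (1.26 to 1.41) and PLK1 was at 1.17-fold (1.10 to 1.25), while MCM5, a replication helicase subunit gene, was at 0.679-fold (0.641 to 0.719) and E2F1 at 0.756-fold (0.682 to 0.837). CCND2, a cyclin gene and MYC target, had 0 counts in both libraries. Over the 3 lists of activated genes together, 58 of 82 measured genes (70.7%) were positive, beside 49.7% of all measured genes. The lists differed, with 91.2% positive for nucleolar, 62.9% for metabolism and 38.5% for cell cycle genes.

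Genes reported as repressed by MYC had ratios of both signs. Of 15, all measured, 5 were positive and 10 negative, with a median of -0.085. THBS1, the thrombospondin-1 gene, was the 1 gene past the size rule, with 775 and 1661 counts and a fold of 2.32 (2.13 to 2.53). GADD45A, a growth arrest gene, was at 1.79-fold (1.58 to 2.04). DDIT3, which encodes the stress factor CHOP and shares exons with another gene, was at 0.545-fold (0.491 to 0.605), and CEBPA, a factor of hepatocyte and fat cell differentiation, at 0.709-fold (0.622 to 0.808).

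Targets of the MLX partners in glucose sensing were measured for 10 of 14 genes, 5 positive and 5 negative, with a median of 0.017 and 0 past the size rule. TXNIP, the glucose-induced arrestin whose mRNA is a standard readout of MLXIP and MLX, had 14633 and 12604 counts and was at 0.931-fold (0.909 to 0.954). ARRDC4, its relative, had 137 and 183 counts and was at 1.44-fold (1.15 to 1.82). ACACB, an acetyl-CoA carboxylase gene, was at 1.41-fold (1.15 to 1.71). FGF21, at 5.63 CPM (parental) and 9.43 CPM (resistant), had the highest log2 ratio of the measured genes in this list, 0.65. It had 102 and 158 counts and a fold of 1.67 (1.297 to 2.17). SCD, the stearoyl-CoA desaturase gene, was lowest at 0.751-fold (0.739 to 0.764), and FASN, the fatty acid synthase gene, was at 0.899-fold (0.875 to 0.924). PKLR and G6PC, liver targets of MLXIPL, had 0 counts in both libraries. TXNIP and ARRDC4 thus lay on opposite sides of the parental level.

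**Figure D4:**
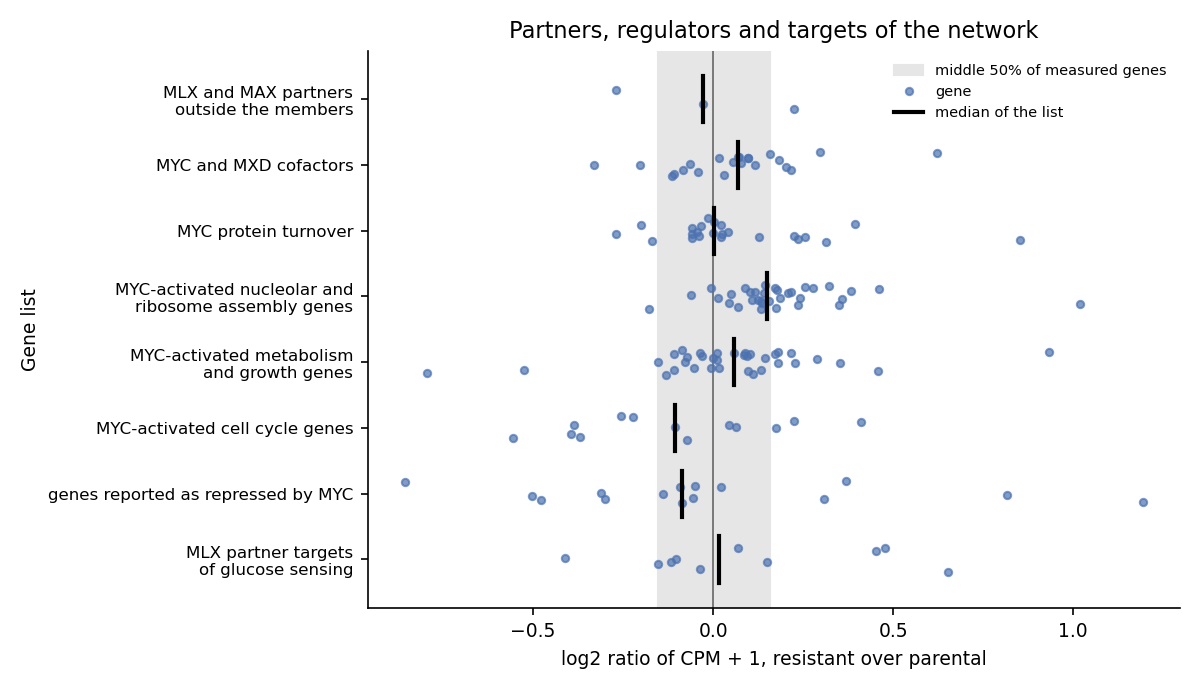
Log2 ratio of CPM plus 1, resistant over parental, of each measured gene (points) in 8 lists of partners, regulators and targets of the network, with the median of each list (black bar) and the middle 50% of all measured genes (grey band). The nucleolar and ribosome assembly list lies mostly to the right of 0, with a median of 0.15, and NIP7 and THBS1 are the genes past a log2 ratio of 1.

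The protein-coding genes whose levels in the 2 libraries were nearest to those of MYC were NUDT14 with 186 and 114 counts, INPP5J with 191 and 115, and DNAJC27 with 187 and 117. Their distances from MYC were 0.024, 0.026 and 0.046 on the log2 scale of CPM plus 1. With 2 libraries, likeness of this kind says no more than that the levels are alike.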

How the data were processed

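The 10 genes and the 8 related lists were chosen with earlier results of these data known. The authors deposited whole-number counts per gene, not normalized, and FPKM, per the file headers. Per the submitters' processing notes, bcl2fastq 2.19, HISAT2 2.0.4, StringTie 1.3.0 and GRCh38 were used; for the annotation release, counting settings and strand use, nothing is given in the sources used here. The authors' table of log2 fold changes also holds a p-value and a q-value from 1 library against 1 library, deposited with no test named and not used as evidence.

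Counts were scaled to CPM with edgeR 4.0.16 (R 4.3.3) TMM factors (1.003 parental, 0.997 resistant), with no model fitted. Log2 ratios used a pseudocount of 1 CPM, which understates differences of low genes. Folds have no pseudocount and carry an exact Clopper-Pearson interval given the sum of both counts; pair ratios carry the exact conditional interval of the odds ratio. PCR copies are not independent molecules, and intervals and floors cover counting error only. Exons came from GENCODE 29 (GRCh38), in which 47523 of 50868 genes had identical coordinates. For 86.2% of 13927 genes with over 20 parental counts, the length in the deposited FPKM was the sum of distinct exons (within 0.1%). All 170 list symbols were matched. The calculation was tested on simulated counts with known folds and counting error only. Such a test cannot speak to variation between cultures. Named were all members, 5 fixed genes (MGA, MLXIP, MLXIPL, ZBTB17, TXNIP), in each other list the 2 highest and 2 lowest ratios at 10 CPM or more and any gene past the size rule, and the 3 genes nearest to MYC. Overlapping genes, unmeasured targets, markers, TERT and FGF21, named besides, were chosen after their values were seen. Alternatives covered scaling (total count, DESeq2 1.42.0 size factors, total without mitochondrial genes), FPKM, pseudocount and filters.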

Additional observations from a re-analysis of the deposited data

How the results depend on the processing

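Over 6 other choices of scaling, unit and pseudocount, 53 of 54 log2 ratios of members stayed within their counting interval and 0 changed sign. The exception was MAX from the deposited FPKM, at 0.79, where a pseudocount of 1 weighs more on FPKM of 1.53 and 3.38 than on CPM. With FPKM MYC was at -0.31 and MYCL at 0.24, and 0 members were higher by the size rule and 1 was higher past a fold of 1.5. With a pseudocount of 0.25 CPM 1 member, MYC, was lower past a fold of 1.5, at -0.61, and 3 were higher past it, with MYCL at 0.68 joining MAX and MXI1. The 2 remaining choices were added after seeing the data, the sums with overlapping genes and the merged exons. Summed with PSMC3IP, MLX was at -0.26; summed with their neighbours, MXD1 was at 0.014 and MXD3 at -0.052. The share of MAX was 8.002% (parental) and 17.9% (resistant) by CPM, 7.10% and 15.0% without MLX, and 9.79% and 21.4% by merged exons. That of the MYC family was 4.82% and 4.02%, 7.997% and 6.16%, and 8.01% and 5.93% in the same order. Of 72 list medians under alternatives, 71 stayed within the median counting interval of their genes; the 3 partners outside the members had -0.15 with a filter of 5 CPM, which removes MLXIPL. The cause of the other moves was not tested. Depth limits MYCN and MYCL most. No paired analysis was possible because each group has 1 library.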
